A study of Mus musculus with 11 samples.

Results

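Kinetochores are the protein assemblies that tie each chromosome to the microtubules of the mitotic spindle, and 45 genes for their parts, for the centromere beneath them and for the spindle checkpoint were followed here across 4 groups of mouse blood stem cells. The 45 genes were chosen by symbol, through the Ensembl identifiers of the count table, from a list made up by role. The rule of the list uses no measured value, but the list was chosen with earlier results of these data known. All 45 were found among the 49585 entries of the table, each on 1 identifier, and all 45 were among the 13448 genes kept by the filter on low counts.

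The stem cells came from bone marrow of C57BL/6 mice and were sorted as lineage-negative, c-Kit+, Sca-1+, CD48- and CD150+ cells, with or without surface CD41, an integrin chain best known from megakaryocytes and platelets. Mice had received control rabbit serum, or their platelets had been depleted 24 h earlier, and no other genotype or agent is named in the labels, which give neither age nor the depleting agent. RNA of 1000 cells pooled from 3 mice made 1 library, which the series calls a biological replicate. Control mice gave 3 CD41- and 2 CD41+ libraries, and depleted mice gave 3 of each fraction.

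A centromere is marked by nucleosomes that hold the histone H3 variant CENP-A. On them sits the inner kinetochore, a constitutive set of CENP proteins, which recruits the KMN network (the KNL1, MIS12 and NDC80 complexes) that binds microtubules during mitosis. Checkpoint kinases and MAD proteins hold back anaphase until chromosomes are attached, and the chromosomal passenger complex around Aurora B corrects faulty attachments. In many cell types these transcripts are made mainly from late S phase to mitosis, and adult haematopoietic stem cells are known to be mostly quiescent.

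Library totals ran from 0.974 M to 9.95 M counts with a median of 3.88 M, and the smallest was depleted CD41+ replicate 1. Levels are given as CPM, counts scaled by TMM to a common library total, where a floor of 3 counts lies between 0.301 and 3.08 CPM depending on the library. Such floors cover counting error only, since PCR-amplified reads without molecular identifiers are not independent molecules. Itga2b, the gene for CD41, had 46.1 to 98.5 CPM in control CD41- cells against 354 and 425 CPM in control CD41+ cells, and 37.5 to 44.7 against 169.8 to 246 CPM in depleted cells, so the CD41 labels and this transcript had the same order in all libraries. Kit and Ly6a (Sca-1) transcripts were counted in each library, at 83.4 to 867 and 48.0 to 490.3 CPM, and so was Cd48, which the sort excludes, at 12.9 to 105.7 CPM. Slamf1 (CD150) was at 16.8 to 25.3 CPM in control CD41- and 47.0 and 56.9 CPM in control CD41+ libraries. Ly6a had the opposite order there, at 236 to 490.3 against 97.8 and 124 CPM. In depleted mice Slamf1 was at 29.5 to 33.8 (CD41-) and 27.2 to 44.5 CPM (CD41+), which overlapped. In RNA of bulk cells, more cells of a kind and more RNA per cell cannot be told apart.

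Summed over the 45 genes, the level was lowest in control CD41- cells. Their CPM added up to 2231, 2411 and 1955 in control CD41- cells, 4049 and 4203 in control CD41+ cells, 4816, 4696 and 4822 in depleted CD41- cells, and 5290.0, 5398 and 4931 in depleted CD41+ cells. As mean ± SD these sums were 2199 ± 229 (n = 3), 4126 ± 109 (n = 2), 4778 ± 71.0 (n = 3) and 5206 ± 245 (n = 3). No sum of a control CD41- library reached that of any other library, and the control CD41+ sums lay below those of all 6 depleted libraries. Of the 45 genes, 37 and 39 exceeded the highest control CD41- library in the control CD41+ libraries, 44, 44 and 43 in depleted CD41- and 41, 44 and 42 in depleted CD41+ libraries. Among all 13448 genes between 25.6% and 31.8% did so.

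**Figure D1:**
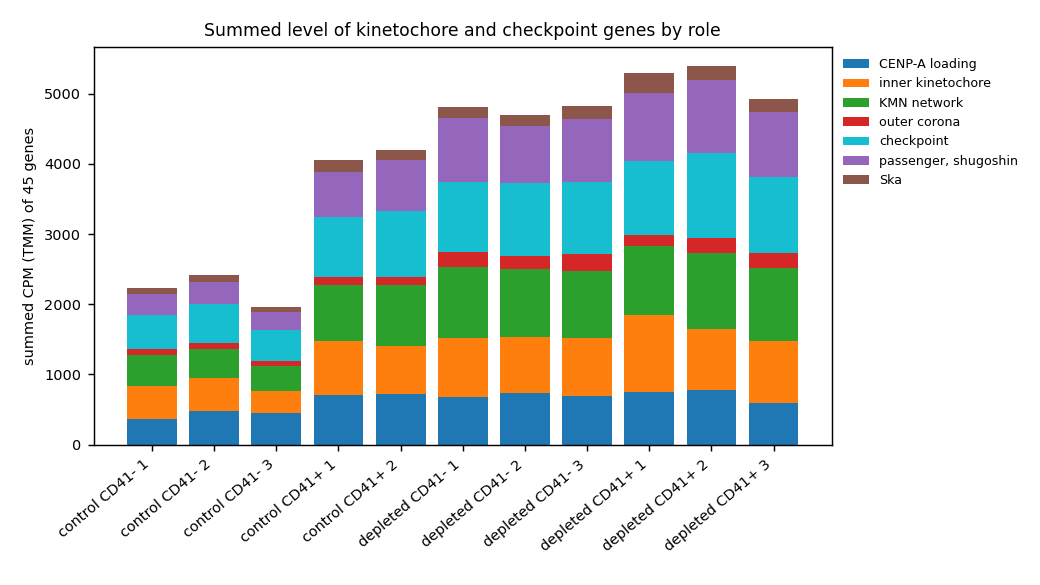
Summed CPM of the 45 genes in each of the 11 libraries (vertical axis, linear from 0), stacked by role. Control CD41- libraries reach 1955 to 2411 CPM, while the other 8 libraries reach 4049 to 5398 CPM.

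Every role took part in this difference of sums, though not to the same extent. Passenger and shugoshin genes added up to 292 ± 32.5 CPM in the CD41- and 682 ± 53.3 CPM in the CD41+ cells of control mice. The 9 KMN genes added up to 408 ± 44.4 and 834 ± 47.9 CPM there. CENP-A loading genes added up to 436 ± 59.6 and 715 ± 11.3 CPM, and then to 702 ± 27.1 and 708 ± 103 CPM in depleted CD41- and CD41+ cells. For the outer corona the sums were 70.6 ± 11.2, 116 ± 0.0778, 207 ± 26.3 and 194 ± 41.3 CPM in the order above (n = 3, 2, 3 and 3).

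**Figure D2:**
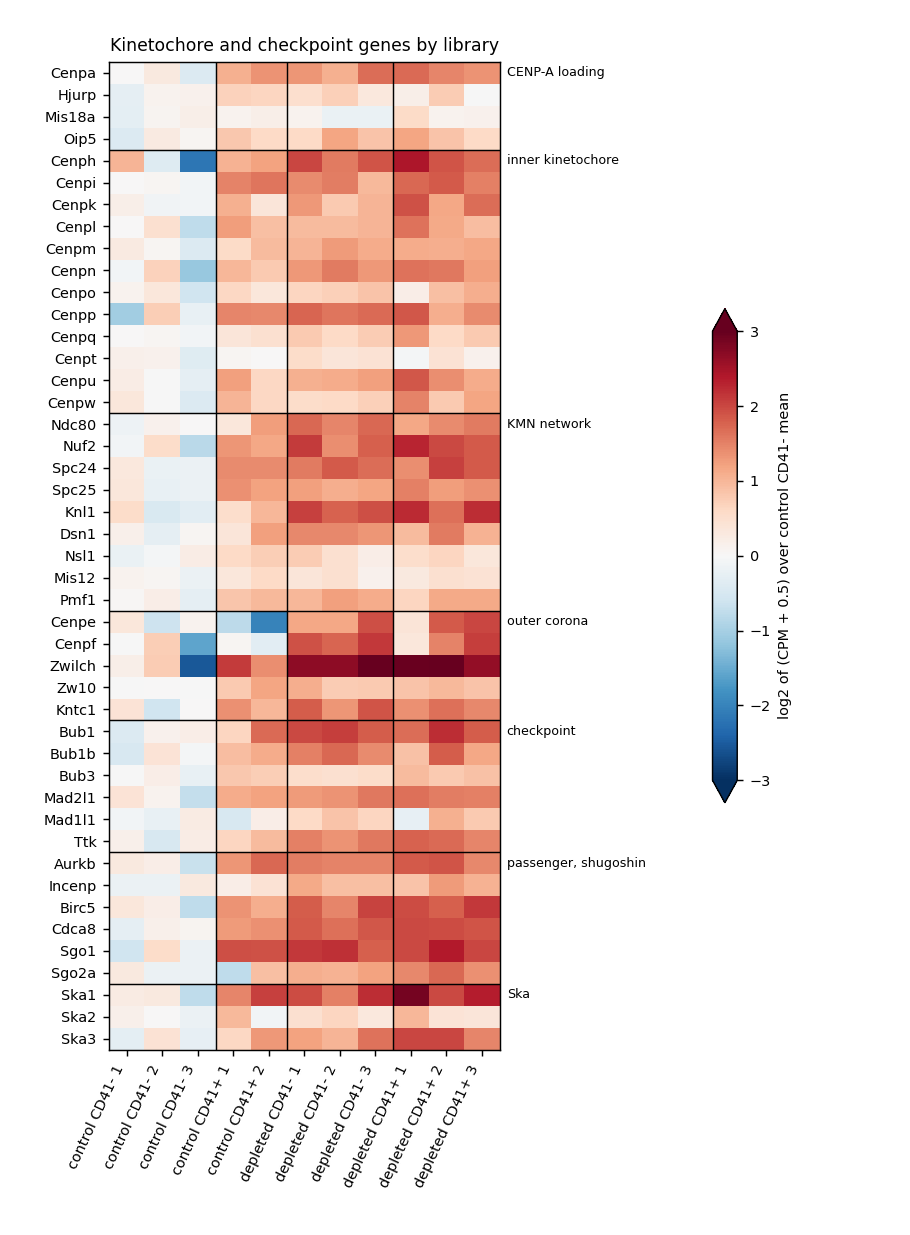
Level of each of the 45 genes (vertical axis, by role) in each library (horizontal axis), as log2 of CPM + 0.5 over the control CD41- mean, with arrows on the colour scale for values beyond its ends. Nearly all genes are at or above the control CD41- mean outside that group, while Mis18a, Cenpt and Mis12 are among the palest and Cenpe is below it in both control CD41+ libraries.

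The first question of the design was how CD41+ and CD41- stem cells differ in control mice. Of the 45 genes, 15 were higher in CD41+ cells, 0 were lower and 30 did not pass (edgeR quasi-likelihood test, Benjamini-Hochberg adjusted p under 0.05). Among all genes 2.62% were called and 1.58% were called higher. At an unadjusted p under 0.05 there were 35 of the 45, against 18.9% of all genes, and of these Cenpe alone was lower. DESeq2 called 26 of the 45 and 7.4% of all genes, and limma voom called 9 and 1.31%, with the called members all higher. The median log2 fold change of the 45 was 0.91, against -0.03 for all genes tested, and 42 of 45 were above 0 where 48.1% of all genes were. In 35 of the 45 both CD41+ libraries lay above all 3 CD41- libraries, which held for 17.4% of all genes. The count of 15 was 5 without control CD41+ replicate 2 and 7 without control CD41- replicate 3, where the calls over all genes fell from 2.62% to 0.33% and 0.977%.

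How depletion changed CD41- stem cells was the next question. Of the 45 genes, 30 rose, 0 fell and 15 did not pass, while 3.19% of all genes were called and 2.3% rose. At an unadjusted p under 0.05 there were 42, all higher, against 16.9% of all genes. DESeq2 called 36 of the 45 and 7.5% of all genes, and limma voom called 34 and 4.74%, with the called members all higher. The median of the 45 was 1.35, against -0.03 for all genes, and 44 of 45 were above 0 where 47.7% of all genes were. All 3 depleted libraries lay above all 3 control libraries in 43 of the 45, against 12.9% of all genes. Both this comparison and the CD41 comparison of control mice rest on the same 3 control CD41- libraries, so that their values stand side by side here and are not set against each other.

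In CD41+ cells depletion gave 0 calls among the 45 in either direction, and 0.104% of all genes were called. At an unadjusted p under 0.05 there were 14 of 45, all higher, against 12.2% of all genes in either direction. DESeq2 called 4 of the 45 (Knl1, Cenpe, Incenp and Cdca8, all higher) and 2.34% of all genes, and limma voom with sample weights called 0 and 0.0595%. Without the filter on low counts edgeR called 3 (Knl1, Cenpe and Cenpf, all higher) and 1.26%. The median was 0.36, against -0.01 for all genes, and 40 of 45 were above 0 where 49.5% of all genes were. Hjurp, Cenpp, Nsl1, Mis12 and Zw10 were not, at -0.31 to -0.00. All 3 depleted libraries lay above both control libraries in 20 of the 45, against 13.2% of all genes.

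Between CD41+ and CD41- cells of depleted mice the 45 genes also gave 0 calls, with 0.193% of all genes called. At an unadjusted p under 0.05 there were 3 (Cenpk, Cenpw and Bub3, higher by 0.55, 0.54 and 0.35), against 9.18% of all genes. DESeq2 and limma voom called 0 of the 45, and 1.52% and 0.773% of all genes. The median was 0.12, against -0.03 for all genes. Of the 45, 32 were above 0, against 47.5% of all genes, and 13 were below it (Hjurp, Oip5, Cenpm, Cenpp, Cenpt, Ndc80, Dsn1, Pmf1, Cenpf, Kntc1, Bub1, Bub1b and Mad1l1, at -0.42 to -0.01). For Cdca8, the gene with the smallest p in both comparisons with control CD41- cells, the 95% interval of this difference ran from -0.17 to 0.47, and for Cenpe from -0.75 to 1.07.

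Whether the depletion response differed between the fractions was tested as the response in CD41+ minus that in CD41- cells. None of the 45 passed in the edgeR fit and 0% of all genes did. At an unadjusted p under 0.05 there were 23 of 45, 22 lower and 1 higher, against 6.13% of all genes. DESeq2 called 4, all lower (Spc24 -1.31, Spc25 -1.06, Cdca8 -1.16 and Sgo1 -1.83), and 0.261% of all genes, while limma voom called 0 of the 45 and 0% of all genes. Without the filter on low counts edgeR called 9 of the 45, all lower (Cenpa, Cenpp, Spc24, Spc25, Bub1, Bub1b, Aurkb, Cdca8 and Sgo1), and 0.709% of all genes. In the edgeR fit the smallest adjusted p was 0.304, shared by Cdca8 (-1.19 ± 0.22), Sgo1 (-1.85 ± 0.38) and Spc24 (-1.33 ± 0.29). The median over the 45 was -0.83, against -0.00 for all genes. Of the 45 only Mis18a, Cenpe, Sgo2a and Mad1l1 were above 0, at 0.21, 1.52, 0.11 and 0.09, against 49.7% of all genes.

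Averaged over both fractions, depletion was followed by higher levels of 30 of the 45 and lower levels of 0, with 6.33% of all genes called and 3.6% higher. Without control CD41+ replicate 1 the count was 16, with 2% of all genes called. The median was 0.87, against -0.01 for all genes, and 45 of 45 were above 0 where 49.2% of all genes were. Averaged over both treatments, CD41+ cells had higher levels of 14 and lower levels of 0, with 5.38% of all genes called and 2.73% higher. Its median was 0.51, against -0.03 for all genes, and the count was 8 without depleted CD41- replicate 1 or replicate 2 and 9 without control CD41+ replicate 2, with 3.26%, 3% and 2.06% of all genes called. Across the 7 comparisons 35 of the 45 passed in at least 1. The share of all genes that did so was not counted, so this count has no background. The 10 that passed in none were Hjurp, Mis18a, Cenph, Cenpl, Cenpo, Cenpt, Nsl1, Mis12, Mad1l1 and Ska2.

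**Figure D3:**
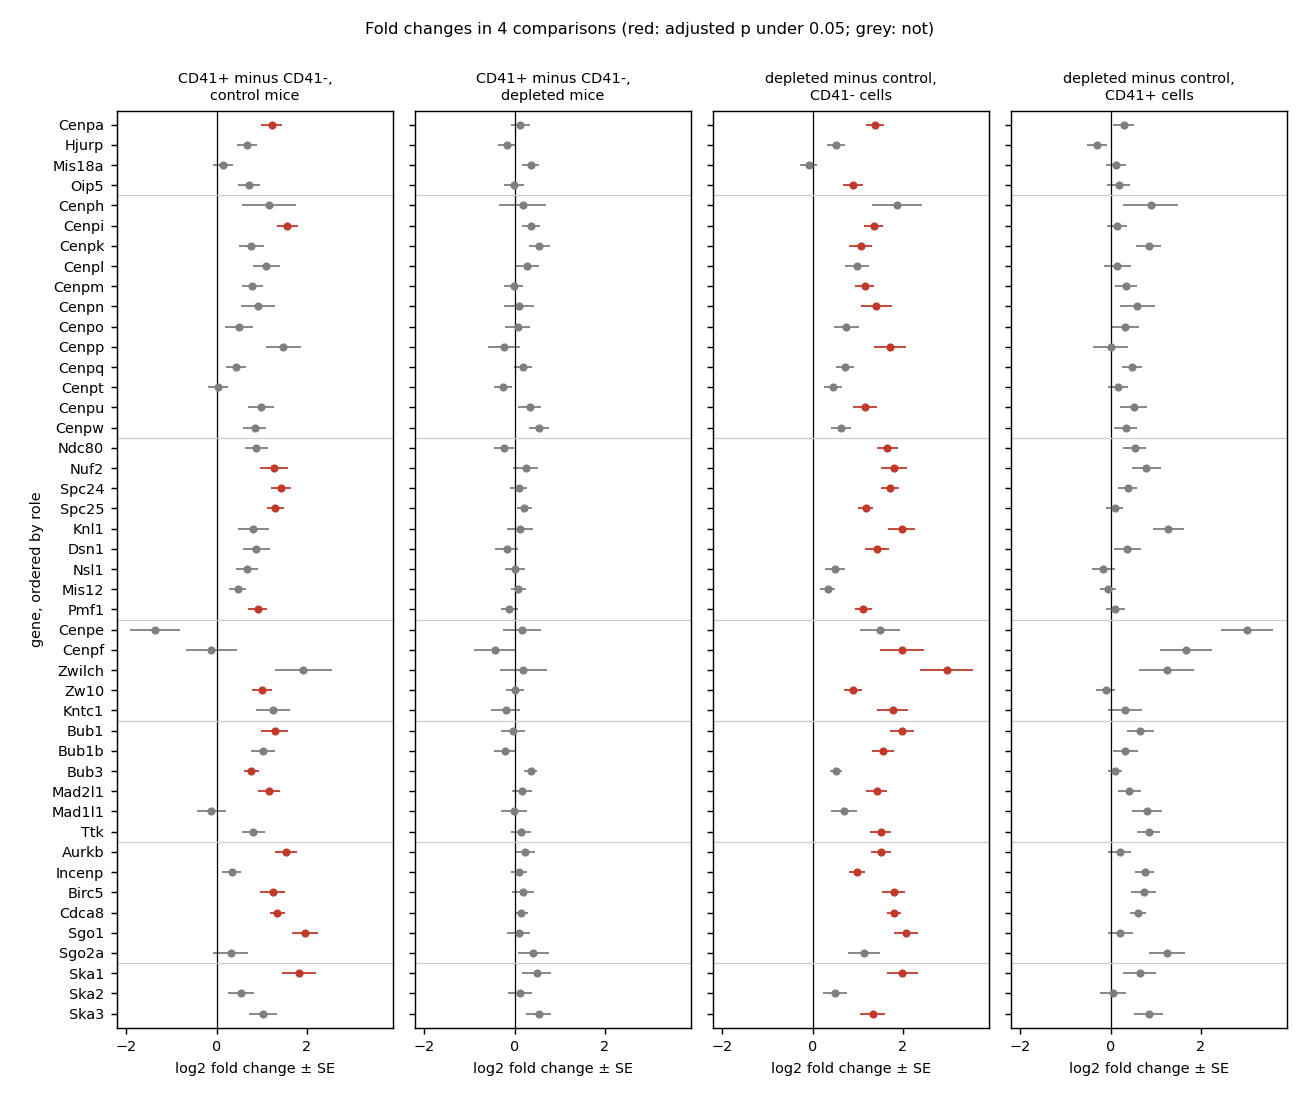
Log2 fold change ± SE (horizontal axis) of the 45 genes (vertical axis, by role) in 4 comparisons, red where the edgeR adjusted p was under 0.05. Red points number 15 in the CD41 comparison of control mice, 30 in the depletion comparison of CD41- cells and 0 in the other panels, and Cenpe is the lowest point of the first panel and the highest of the last.

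Among the 4 genes that load CENP-A, 1 was higher in control CD41+ cells and 2 rose on depletion in CD41- cells. Of all genes 1.58% and 2.3% did so, and 1 call among 4 genes is too few to be set apart from such a share. Cenpa, the histone variant itself (chr5:30666777-30674830, plus strand, GRCm38), was at 76.5, 92.4 and 56.9 CPM in control CD41- and 158 and 191 CPM in control CD41+ libraries. Levels of Cenpa after depletion were 189.8, 157 and 241 CPM (CD41-) and 246, 208 and 191 CPM (CD41+). Its 3 control CD41- libraries lay below the other 8, and it was 2.32-fold higher in CD41+ than CD41- cells of control mice (log2 1.22 ± 0.23, edgeR adjusted p = 0.0141) and 2.61-fold higher after depletion in CD41- cells (log2 1.38 ± 0.21, edgeR adjusted p = 0.00261). The CD41 call of Cenpa was lost in 2 of 19 alternative settings, and its depletion call in 0 of 18. For Oip5, a subunit of the MIS18 complex that licenses the centromere for new CENP-A, control libraries gave 45.1, 73.3 and 63.2 CPM (CD41-) and 106 and 92.4 CPM (CD41+). Depleted mice had Oip5 at 91.9, 138 and 109.7 CPM in CD41- and 138, 109.9 and 92.3 CPM in CD41+ libraries. Control CD41- libraries were again the lowest, and the increase on depletion in CD41- cells passed (log2 0.90 ± 0.22, edgeR adjusted p = 0.0412) while that between the fractions of control mice did not (log2 0.71 ± 0.25, edgeR adjusted p = 0.132). This depletion call of Oip5 was lost in 9 of 18 alternative settings. Hjurp, the chaperone that deposits CENP-A, had 185, 239 and 246 CPM in CD41- and 359 and 351 CPM in CD41+ libraries of control mice. After depletion Hjurp had 315, 369 and 276 CPM (CD41-) and 254, 381 and 223 CPM (CD41+). Its range in depleted CD41+ cells overlapped that of control CD41- cells, and it passed in no comparison (log2 0.67 ± 0.22, edgeR adjusted p = 0.119 for CD41 in control mice). Mis18a, the other core subunit of the MIS18 complex, was at 63.3, 81.1 and 87.3 CPM in control CD41- and 83.6 and 87.7 CPM in control CD41+ libraries. Levels of Mis18a after depletion were 83.6, 67.4 and 66.7 CPM (CD41-) and 116, 82.5 and 84.5 CPM (CD41+). The 4 groups overlapped, and Mis18a was the single gene of the 45 with a negative fold change on depletion in CD41- cells (log2 -0.09 ± 0.19, edgeR adjusted p = 0.87).

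Of the 12 inner kinetochore genes, 1 was higher in control CD41+ cells and 6 rose on depletion in CD41- cells (Cenpi, Cenpk, Cenpm, Cenpn, Cenpp and Cenpu). Of all genes 1.58% and 2.3% did so, and 1 call among 12 genes is too few to be set apart from such a share. For Cenpi, a subunit of the CENP-H/I/K/M part (chrX:134308084-134362639, plus strand), control libraries gave 23.9, 24.3 and 22.4 CPM (CD41-) and 67.1 and 72.5 CPM (CD41+). Depleted mice had Cenpi at 64.0, 69.1 and 46.8 CPM in CD41- and 79, 85.1 and 67.6 CPM in CD41+ libraries. The 3 control CD41- libraries were within 22.4 to 24.3 CPM and all others were at least 46.8 CPM, and Cenpi was 2.96-fold higher in control CD41+ cells (log2 1.57 ± 0.22, edgeR adjusted p = 0.00367) and 2.55-fold higher after depletion in CD41- cells (log2 1.35 ± 0.21, edgeR adjusted p = 0.00269). Cenpk, its partner in the same part, had 38.2, 31.4 and 32.1 CPM in CD41- and 71.9 and 43.9 CPM in CD41+ libraries of control mice. After depletion Cenpk had 83.6, 59.1 and 69.3 CPM (CD41-) and 128, 76.8 and 110.1 CPM (CD41+). Control CD41+ replicate 2 was close to the CD41- libraries, and the CD41 difference did not pass (log2 0.77 ± 0.27, edgeR adjusted p = 0.139) while the depletion response of CD41- cells did (log2 1.06 ± 0.25, edgeR adjusted p = 0.0307). This depletion call of Cenpk was lost in 5 of 18 alternative settings. Cenpm, the third of these subunits, was at 41.8, 35.6 and 25.5 CPM in control CD41- and 51.3 and 67.1 CPM in control CD41+ libraries. Levels of Cenpm after depletion were 69.7, 84.0 and 75.2 CPM (CD41-) and 74.5, 73.1 and 77.8 CPM (CD41+). No control CD41- library reached any other library, and the depletion response of CD41- cells passed (log2 1.15 ± 0.21, edgeR adjusted p = 0.0081). For Cenpp, a subunit of the CENP-O/P/Q/U part, control libraries gave 7.43, 26.7 and 13.6 CPM (CD41-) and 44.9 and 44.1 CPM (CD41+). Depleted mice had Cenpp at 54.6, 49.6 and 52.5 CPM in CD41- and 59, 34.5 and 43.1 CPM in CD41+ libraries. Control CD41- libraries differed widely among themselves but stayed below the rest, and depletion in CD41- cells gave log2 1.71 ± 0.36, edgeR adjusted p = 0.0183, a call lost in 3 of 18 alternative settings.

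Remaining inner kinetochore genes had fold changes between 0.03 (Cenpt) and 1.16 (Cenph) in the CD41 comparison of control mice, and none of them passed there. Cenph, the fourth subunit of the CENP-H/I/K/M part, had 32.7, 12.0 and 3.16 CPM in CD41- and 33.4 and 37.7 CPM in CD41+ libraries of control mice. After depletion Cenph had 65.3, 48.2 and 60.1 CPM (CD41-) and 87.9, 60.6 and 52.4 CPM (CD41+). Its control CD41- libraries differed widely, the highest lay next to the control CD41+ libraries, and the depletion response of CD41- cells did not pass (log2 1.87 ± 0.55, edgeR adjusted p = 0.0982). Cenpt, which bridges the inner kinetochore to NDC80, was at 50.1 to 71.8 CPM in control CD41- and 64.2 and 66.5 CPM in control CD41+ cells, which overlapped. Depleted CD41- libraries had 82.3 to 94.2 CPM, above all control libraries, and depleted CD41+ libraries had 61.2 to 87.0 CPM, but Cenpt passed in no comparison. Exons of Cenpu, Cenpo and Cenpp share 26.7%, 22.5% and 12.6% of their bases with genes on the opposite strand, and with a strand setting that is not given their counts are less certain.

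Within the KMN network 4 of 9 genes were higher in control CD41+ cells (Nuf2, Spc24, Spc25 and Pmf1) and 7 rose on depletion in CD41- cells (all but Nsl1 and Mis12), against 1.58% and 2.3% of all genes. Spc24, which with Spc25 forms the end of the NDC80 complex that docks on the inner kinetochore (chr9:21755442-21760303, minus strand), was at 81.4, 56.8 and 57.9 CPM in control CD41- and 177 and 175 CPM in control CD41+ libraries. Levels of Spc24 after depletion were 194, 237 and 209 CPM (CD41-) and 172, 271 and 235 CPM (CD41+). Control CD41- libraries were well below the others, at a 2.69-fold difference from control CD41+ cells (log2 1.43 ± 0.21, edgeR adjusted p = 0.00384) and a 3.27-fold difference from depleted CD41- cells (log2 1.71 ± 0.20, edgeR adjusted p = 0.000551). For Spc25, its partner, control libraries gave 100.1, 67.8 and 70.5 CPM (CD41-) and 205 and 185 CPM (CD41+). Depleted mice had Spc25 at 187, 170.3 and 181 CPM in CD41- and 228, 190.3 and 207 CPM in CD41+ libraries. The same separation was seen, with log2 1.30 ± 0.19, edgeR adjusted p = 0.00367 for CD41 in control mice and log2 1.17 ± 0.17, edgeR adjusted p = 0.00198 for depletion in CD41- cells. Ndc80, the microtubule-binding subunit, had 29.4, 35.6 and 32.6 CPM in CD41- and 41.4 and 78.4 CPM in CD41+ libraries of control mice. After depletion Ndc80 had 108, 90.3 and 108 CPM (CD41-) and 73.4, 88.2 and 96.1 CPM (CD41+). Control CD41+ replicate 1 was near the CD41- libraries and replicate 2 was not, and the CD41 difference did not pass (log2 0.88 ± 0.25, edgeR adjusted p = 0.0805) while the depletion response of CD41- cells did, at 3.14-fold (log2 1.65 ± 0.23, edgeR adjusted p = 0.00163). Nuf2, the other subunit of the microtubule-binding end, was at 37.1, 57.8 and 22.1 CPM in control CD41- and 98.6 and 88.5 CPM in control CD41+ libraries. Levels of Nuf2 after depletion were 169, 104 and 136 CPM (CD41-) and 192, 156 and 142 CPM (CD41+). All libraries outside the control CD41- group exceeded the 3 within it, and both log2 1.26 ± 0.31, edgeR adjusted p = 0.0484 for CD41 in control mice and log2 1.80 ± 0.29, edgeR adjusted p = 0.0034 for depletion in CD41- cells passed. Lost calls over the alternative settings were not counted for Nuf2.

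For Knl1, the scaffold that recruits checkpoint kinases, control libraries gave 19.0, 9.16 and 10.2 CPM (CD41-) and 18.7 and 26.1 CPM (CD41+). Depleted mice had Knl1 at 54.4, 44.8 and 50.6 CPM in CD41- and 62.3, 41.2 and 60.9 CPM in CD41+ libraries. Control CD41+ libraries overlapped the CD41- libraries, and depleted libraries of both fractions lay above all 5 control libraries. Knl1 rose 3.91-fold on depletion in CD41- cells (log2 1.97 ± 0.31, edgeR adjusted p = 0.00301), and in CD41+ cells its value was log2 1.28 ± 0.34, edgeR adjusted p = 0.17. Nsl1 and Mis12, subunits of the MIS12 complex that joins the inner to the outer kinetochore, were at 29.2 to 39.2 and 68.8 to 83.6 CPM in control CD41- cells and at 38.5 to 56.9 and 85.1 to 117 CPM elsewhere. Neither passed in any of the 7 comparisons, although Dsn1 and Pmf1 of the same complex rose on depletion in CD41- cells by 1.42 ± 0.27 (edgeR adjusted p = 0.00994) and 1.12 ± 0.19 (edgeR adjusted p = 0.00533).

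The 5 genes of the outer corona, a fibrous layer that forms on unattached kinetochores, split in the CD41 comparison of control mice. Cenpe, a kinesin motor that moves chromosomes towards the spindle equator (chr3:135212537-135273611, plus strand), had 15.1, 7.59 and 12.9 CPM in CD41- and 6.68 and 2.58 CPM in CD41+ libraries of control mice. After depletion Cenpe had 27.2, 27 and 46.6 CPM (CD41-) and 15.6, 44.1 and 48.9 CPM (CD41+). Both control CD41+ libraries were below all 3 control CD41- libraries, and all 6 depleted libraries were above all 5 control libraries. Cenpe had a CD41 difference of log2 -1.36 ± 0.55, edgeR adjusted p = 0.2 in control mice, which did not pass, and was 8.08-fold higher after depletion in CD41+ cells, which did not pass either (log2 3.01 ± 0.57, edgeR adjusted p = 0.076). Without depleted CD41+ replicate 1 the latter passed (3.32 ± 0.50, edgeR adjusted p = 0.0237), as did its average depletion response with all libraries (log2 2.25 ± 0.36, edgeR adjusted p = 0.00303). Its raw counts were 55, 29 and 53 in control CD41- and 25 and 10 in control CD41+ libraries. Depleted CD41+ replicate 1 held 14, so these levels rest on few reads. At 15.6 CPM this depleted library lay only just above control CD41- replicate 1 at 15.1 CPM.

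Cenpf, a large corona protein that binds CENP-E and dynein regulators (chr1:189640606-189688086, minus strand), was at 14.9, 25.1 and 4.62 CPM in control CD41- and 15.5 and 11.9 CPM in control CD41+ libraries. Levels of Cenpf after depletion were 57.7, 51.3 and 66.5 CPM (CD41-) and 18.9, 42.7 and 64.7 CPM (CD41+). Control groups overlapped (log2 -0.12 ± 0.56, edgeR adjusted p = 0.935), and the sign of that difference turned when control CD41- replicate 2 or control CD41+ replicate 2 was left out. Depleted CD41- libraries lay above all controls (log2 1.98 ± 0.49, edgeR adjusted p = 0.0423), and depleted CD41+ replicate 1 lay within the control range. The call of Cenpf for depletion in CD41- cells was lost in 8 of 18 alternative settings. For Zwilch, a subunit of the ROD-ZW10-Zwilch complex that brings MAD proteins and dynein to kinetochores, control libraries gave 4.40, 6.81 and 0.243 CPM (CD41-) and 17.9 and 10.8 CPM (CD41+). Depleted mice had Zwilch at 27.4, 27 and 35.0 CPM in CD41- and 33.4, 41.9 and 26.5 CPM in CD41+ libraries. Control CD41- replicate 3 held 1 count of Zwilch, and the 7.82-fold difference on depletion in CD41- cells (log2 2.97 ± 0.59, edgeR adjusted p = 0.0134) has the largest SE of the 30 called there. This call of Zwilch was lost in 1 of 18 alternative settings. Kntc1, the ROD subunit of that complex, had 9.35, 4.45 and 7.05 CPM in CD41- and 18.7 and 14.4 CPM in CD41+ libraries of control mice. After depletion Kntc1 had 25.9, 18.2 and 27 CPM (CD41-) and 18.9, 22.7 and 19.8 CPM (CD41+). Control CD41- libraries were the lowest, the CD41 difference did not pass (log2 1.25 ± 0.37, edgeR adjusted p = 0.0865) and the depletion response of CD41- cells did (log2 1.77 ± 0.34, edgeR adjusted p = 0.0111). This call of Kntc1 was lost in 2 of 18 alternative settings. Zw10, the subunit that anchors dynein, was at 33.0, 33.5 and 32.8 CPM in control CD41- and 57.2 and 76.1 CPM in control CD41+ libraries. Levels of Zw10 after depletion were 70.7, 56.1 and 57.2 CPM (CD41-) and 60.1, 65.1 and 60.0 CPM (CD41+). Control CD41- libraries lay close together and below the rest, and Zw10 was higher in control CD41+ cells (log2 1.01 ± 0.21, edgeR adjusted p = 0.0245) and after depletion in CD41- cells (log2 0.89 ± 0.19, edgeR adjusted p = 0.023). These 2 calls were lost in 6 of 19 and 5 of 18 alternative settings.

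Checkpoint genes gave 3 calls of 6 in the CD41 comparison of control mice (Bub1, Bub3 and Mad2l1) and 4 on depletion in CD41- cells (Bub1, Bub1b, Mad2l1 and Ttk). All were higher, where 1.58% and 2.3% of all genes were called higher. For Bub1, a kinase that marks centromeric histones and recruits checkpoint proteins (chr2:127801122-127831865, minus strand), control libraries gave 19.3, 28.5 and 29.9 CPM (CD41-) and 40.9 and 85.7 CPM (CD41+). Depleted mice had Bub1 at 104, 110.0 and 92.2 CPM in CD41- and 83.4, 122 and 91.8 CPM in CD41+ libraries. The 2 control CD41+ libraries differed widely from each other, though both were above the CD41- libraries, and the CD41 call (log2 1.29 ± 0.30, edgeR adjusted p = 0.0379) was lost in 11 of 19 alternative settings. Its 3.94-fold increase on depletion in CD41- cells (log2 1.98 ± 0.27, edgeR adjusted p = 0.00154) passed in all 18 alternatives run for it. Bub1b, BUBR1, part of the complex that inhibits the anaphase-promoting complex, had 60.2, 111 and 80.0 CPM in CD41- and 158 and 183 CPM in CD41+ libraries of control mice. After depletion Bub1b had 238, 279.6 and 224 CPM (CD41-) and 156, 295 and 186 CPM (CD41+). Control CD41- libraries were the lowest, with a depletion response of log2 1.56 ± 0.25, edgeR adjusted p = 0.0034 in CD41- cells. Mad2l1, the MAD2 protein that binds and holds CDC20, was at 88.0, 70.9 and 40.1 CPM in control CD41- and 143 and 153 CPM in control CD41+ libraries. Levels of Mad2l1 after depletion were 160.4, 169 and 201 CPM (CD41-) and 211, 195 and 189.9 CPM (CD41+). No overlap was seen between control CD41- and any other library, with log2 1.16 ± 0.25, edgeR adjusted p = 0.025 for CD41 in control mice and log2 1.41 ± 0.23, edgeR adjusted p = 0.00361 for depletion in CD41- cells. The CD41 call of Mad2l1 was lost in 3 of 19 alternative settings, and its depletion call in 0 of 18.

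For Ttk, the MPS1 kinase that starts checkpoint signalling, control libraries gave 25.3, 16.0 and 26.5 CPM (CD41-) and 35.8 and 43.9 CPM (CD41+). Depleted mice had Ttk at 65.8, 58.2 and 68.8 CPM in CD41- and 77.9, 74.1 and 63.2 CPM in CD41+ libraries. Depleted libraries of both fractions were above all controls, and the response passed in CD41- cells (log2 1.51 ± 0.23, edgeR adjusted p = 0.00269) but not in CD41+ cells (log2 0.84 ± 0.26, edgeR adjusted p = 0.215). Bub3, a partner of BUB1 and BUBR1 that docks them on KNL1, had 254, 296 and 222 CPM in CD41- and 449 and 429.9 CPM in CD41+ libraries of control mice. After depletion Bub3 had 371, 358 and 376 CPM (CD41-) and 497, 446 and 470.2 CPM (CD41+). Depleted CD41- libraries lay between the control CD41- and control CD41+ libraries, and the CD41 difference of control mice passed (log2 0.77 ± 0.16, edgeR adjusted p = 0.02) while the depletion response of CD41- cells did not (log2 0.52 ± 0.14, edgeR adjusted p = 0.0659). The call of Bub3 for CD41 in control mice was lost in 6 of 19 alternative settings. Mad1l1, MAD1, the platform on which MAD2 is converted, was at 38.8, 35.3 and 49.1 CPM in control CD41- and 29.1 and 47.0 CPM in control CD41+ libraries. Levels of Mad1l1 after depletion were 62.5, 74.6 and 64.1 CPM (CD41-) and 34.5, 86.2 and 71.7 CPM (CD41+). Control groups overlapped, and Mad1l1 was 1 of 3 genes, with Cenpe and Cenpf, whose fold change in the CD41 comparison of control mice was below 0 (log2 -0.11 ± 0.33, edgeR adjusted p = 0.892). That sign turned without control CD41- replicate 3 or control CD41+ replicate 1.

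Passenger and shugoshin genes gave 4 calls of 6 in the CD41 comparison of control mice (Aurkb, Birc5, Cdca8 and Sgo1) and 5 on depletion in CD41- cells (those and Incenp). All were higher, where 1.58% and 2.3% of all genes were called higher. For Cdca8, borealin, which helps target Aurora B to the centromere (chr4:124918465-124939311, minus strand), control libraries gave 55.6, 74.1 and 71.0 CPM (CD41-) and 164 and 175 CPM (CD41+). Depleted mice had Cdca8 at 241, 210.5 and 244 CPM in CD41- and 264, 260.5 and 248 CPM in CD41+ libraries. The 3 control CD41- libraries lay below the 2 control CD41+ libraries and those below all 6 depleted ones. Cdca8 was 2.53-fold higher in control CD41+ cells (log2 1.34 ± 0.17, edgeR adjusted p = 0.0029) and 3.46-fold higher after depletion in CD41- cells (log2 1.79 ± 0.16, edgeR adjusted p = 9.49e-05), both in all alternative settings, and log2 0.60 ± 0.17, edgeR adjusted p = 0.184 in CD41+ cells did not pass. Sgo1, shugoshin, which protects centromeric cohesin until anaphase (chr17:53674786-53689333, minus strand), had 12.4, 28.3 and 16.8 CPM in CD41- and 74.0 and 73.8 CPM in CD41+ libraries of control mice. After depletion Sgo1 had 85.2, 89.0 and 67.6 CPM (CD41-) and 76.7, 101 and 78.7 CPM (CD41+). Its control CD41- libraries reached at most 28.3 CPM and all others at least 67.6 CPM, with 3.85-fold for CD41 in control mice (log2 1.95 ± 0.29, edgeR adjusted p = 0.00383) and 4.21-fold for depletion in CD41- cells (log2 2.07 ± 0.27, edgeR adjusted p = 0.0011). Aurkb, the Aurora B kinase (chr11:69045647-69051664, plus strand), was at 87.5, 81.7 and 44.5 CPM in control CD41- and 179 and 235 CPM in control CD41+ libraries. Levels of Aurkb after depletion were 206, 201 and 201 CPM (CD41-) and 255, 266 and 194 CPM (CD41+). Control CD41- libraries were the lowest, with log2 1.54 ± 0.25, edgeR adjusted p = 0.00602 for CD41 in control mice, a call lost without control CD41+ replicate 2 (edgeR adjusted p = 0.0767), and log2 1.51 ± 0.23, edgeR adjusted p = 0.00261 for depletion in CD41- cells.

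For Birc5, survivin, the small subunit that reads the histone mark, control libraries gave 71.8, 64.9 and 33.1 CPM (CD41-) and 145 and 122 CPM (CD41+). Depleted mice had Birc5 at 199.6, 156 and 231 CPM in CD41- and 221, 199 and 246 CPM in CD41+ libraries. Control CD41- replicate 3 was the lowest of the 11, and both log2 1.24 ± 0.27, edgeR adjusted p = 0.0279 for CD41 in control mice and log2 1.79 ± 0.25, edgeR adjusted p = 0.0016 for depletion in CD41- cells passed. The CD41 call of Birc5 was lost in 5 of 19 alternative settings, and its depletion call in 0 of 18. Incenp, the scaffold of the same complex, was at 55.8 to 76.6 CPM in control CD41- and 72.7 and 85.4 CPM in control CD41+ cells, which overlapped, and at 113 to 153 CPM in all depleted libraries. Its CD41 difference in control mice did not pass (log2 0.33 ± 0.21, edgeR adjusted p = 0.404) and its depletion response in CD41- cells did (log2 0.98 ± 0.19, edgeR adjusted p = 0.00988). Sgo2a, the other shugoshin, shares 35% of its exon bases with a gene on the opposite strand and passed only in the average depletion response among the 7 comparisons.

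The Ska complex couples kinetochores to shortening microtubules. Ska1, its microtubule-binding subunit, had 13.8, 14.1 and 6.57 CPM in CD41- and 32.6 and 48.8 CPM in CD41+ libraries of control mice. After depletion Ska1 had 46.4, 33.7 and 55.6 CPM (CD41-) and 86.8, 46.8 and 60.6 CPM (CD41+). Control CD41- libraries were below all others, with log2 1.83 ± 0.37, edgeR adjusted p = 0.02 for CD41 in control mice and log2 1.98 ± 0.34, edgeR adjusted p = 0.0057 for depletion in CD41- cells. The CD41 call of Ska1 was lost in 4 of 19 alternative settings, and its depletion call in 0 of 18. Ska3, the subunit that binds NDC80, was at 19.3, 31.9 and 19.7 CPM in control CD41- and 36.9 and 59.1 CPM in control CD41+ libraries. Levels of Ska3 after depletion were 55.6, 48.8 and 73.8 CPM (CD41-) and 96.8, 96.6 and 65.8 CPM (CD41+). Depletion in CD41- cells gave log2 1.33 ± 0.28, edgeR adjusted p = 0.0187, a call lost in 4 of 18 alternative settings. The CD41 difference of control mice did not pass (log2 1.02 ± 0.31, edgeR adjusted p = 0.0898). Ska2, the small subunit between them, was at 40.9 to 51.4 CPM in control CD41- and 44.1 and 91.6 CPM in control CD41+ cells. After depletion it was at 57.9 to 72.9 CPM (CD41-) and 60.3 to 93.4 CPM (CD41+), above all control CD41- libraries, but it passed in no comparison.

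**Figure D4:**
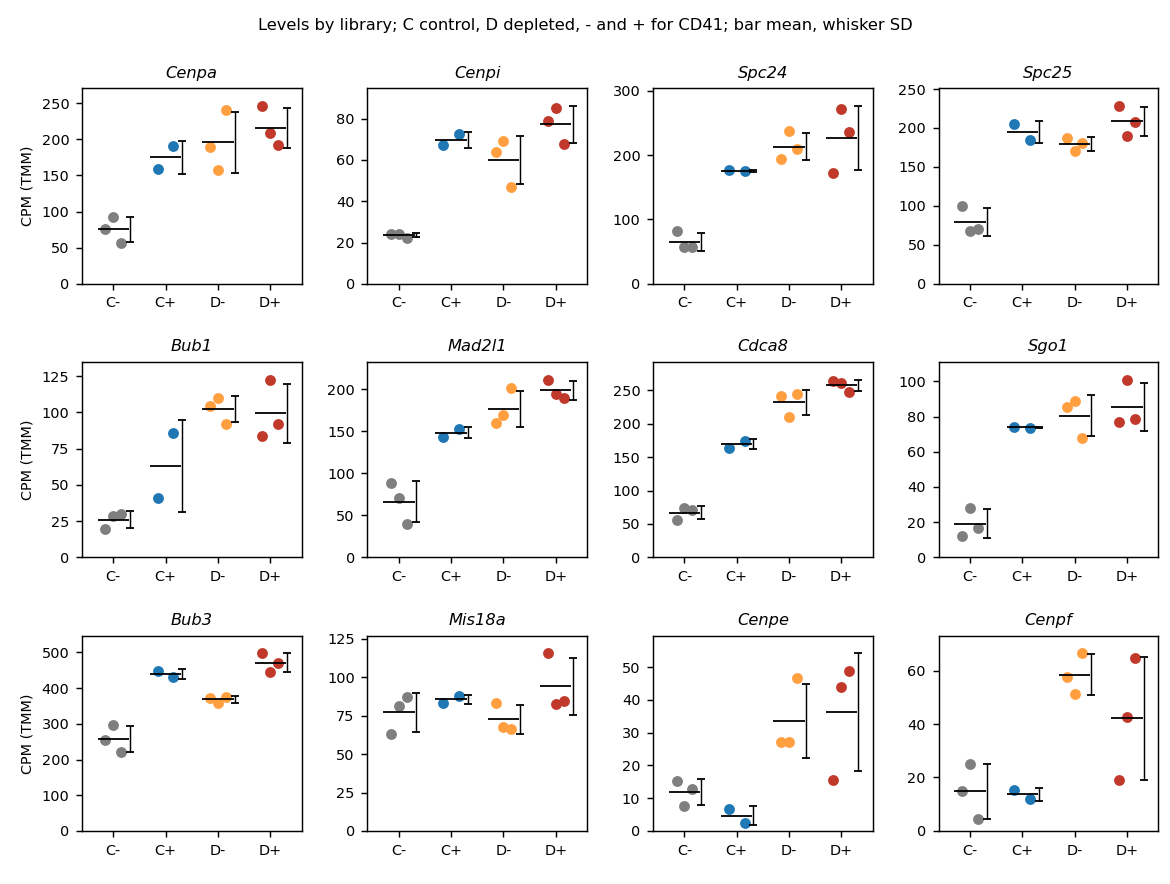
CPM (linear from 0) of 12 genes in each library, with C for control and D for depleted mice, - and + for CD41, a bar for the mean and a whisker for the SD (n = 3, 2, 3 and 3). Cenpi, Spc24, Cdca8 and Sgo1 leave no overlap between control CD41- libraries and the rest, Mis18a overlaps throughout, and Cenpe and Cenpf are low in both control groups.

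Levels can be compared between genes only per kb of transcript, and on that scale the order of the genes was partly the same in the groups. Bub3 was the most abundant in control CD41- cells (116 ± 16.6 CPM per kb, n = 3) and in control CD41+ cells (198 ± 6.06, n = 2). Birc5 was first in depleted CD41- cells (207 ± 39.5, n = 3) and depleted CD41+ cells (235 ± 25.0, n = 3), where Bub3 followed at 166 ± 4.16 and 212 ± 11.5, so that in these groups the first ranks differed by about their spread. At the other end stood Kntc1 in control CD41- cells (0.999 ± 0.352) and in depleted CD41- and CD41+ cells (3.40 ± 0.684 and 2.94 ± 0.287), and Cenpe in control CD41+ cells (0.585 ± 0.366). The lowest 4 in control CD41- cells, Kntc1, Zwilch, Cenpf and Cenpe, lay between 0.999 and 1.50 CPM per kb and did not differ beyond their spread.

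Median fold changes of all genes differed between classes of transcript length. In the CD41 comparison of control mice the median log2 fold change of all genes fell from 0.06 for transcripts under 2 kb to 0.04 (2 to 4 kb), -0.19 (4 to 6 kb), -0.49 (6 to 8 kb) and -0.65 (8 kb and over). On depletion in CD41+ cells the medians were 0.01, -0.05, -0.04, 0.18 and 0.25 in the same order, and on depletion in CD41- cells 0.03, -0.02, -0.08, -0.16 and -0.16. Cenpf (11.1 kb), Cenpe (7.91 kb) and Knl1 (7.80 kb) are the longest of the 45, at -0.12, -1.36 and 0.81 in the CD41 comparison of control mice. They are followed by Mad2l1 (7.56 kb) and Kntc1 (6.96 kb), both of which were above 1 in that comparison. Member medians per length class in that comparison were 1.01 (18 genes), 1.00 (18), 0.58 (4) and 0.99 (4), with the single gene of the longest class at -0.12. The part of transcript length in the values of Cenpe and Cenpf was not tested.

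**Figure D5:**
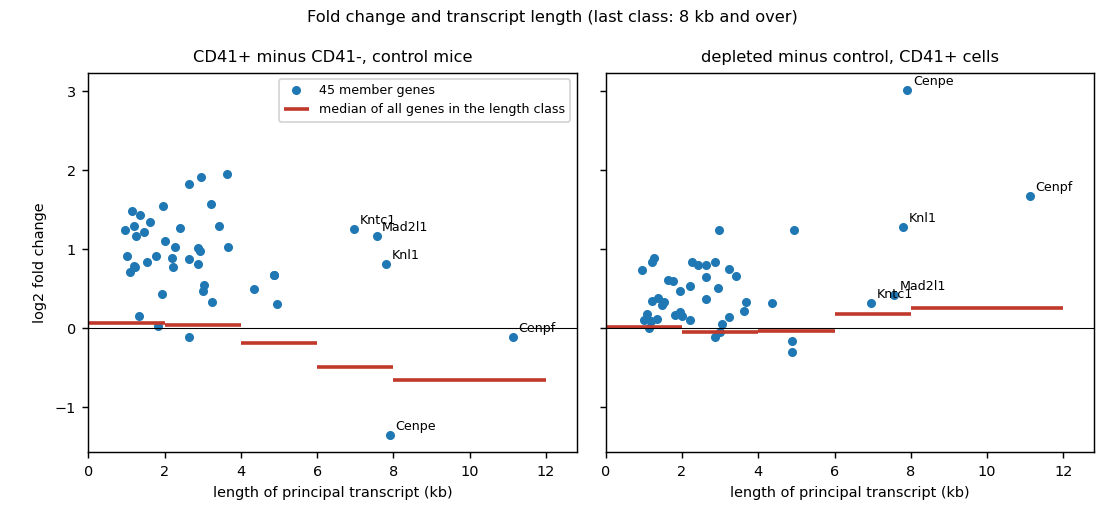
Log2 fold change (vertical axis) against length of the principal transcript in kb (horizontal axis) for the 45 genes (points), with the median of all genes in each length class (red bars). In the CD41 comparison of control mice the medians drop to -0.65 for the longest class and Cenpe is the lowest point, and on depletion in CD41+ cells the medians reach 0.25 and Cenpe is the highest.

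Other genes of mitosis and replication, from lists written with earlier results of these data known, gave calls in the same comparisons. Among all genes 1.58% were called higher for CD41 in control mice and 2.3% on depletion in CD41- cells. Of 25 further kinetochore genes, 1 was higher in control CD41+ cells and 8 rose on depletion in CD41- cells, led by Plk1, a mitotic kinase (1.36 ± 0.24, edgeR adjusted p = 0.0101, and 1.72 ± 0.22, edgeR adjusted p = 0.00107). With 25 genes, 1 call for CD41 is too few to be set apart from the share of all genes. Knstrn and Trip13, a spindle protein and a checkpoint ATPase, did not pass for CD41 in control mice (0.88 ± 0.23 and 0.88 ± 0.24, edgeR adjusted p = 0.0623 and 0.0694). Of 21 genes of the anaphase-promoting complex and its partner enzymes, activators, inhibitor and targets, 4 were higher in control CD41+ cells and 4 rose on depletion in CD41- cells. Among them were Ube2c, Fbxo5 and Cdc20 (1.45, 1.35 and 1.19, edgeR adjusted p = 0.00304, 0.00367 and 0.0147 for CD41 in control mice). Of 26 other mitotic genes 13 and 20 did so, with Tacc3, Ccnb2 and Ccnb1 at 1.56, 1.28 and 1.48 (each edgeR adjusted p = 0.00367). Of 34 replication genes 16 and 20 did so, with Rrm1, Rrm2 and Rfc5 at 1.34, 1.84 and 1.05 (edgeR adjusted p = 0.00198, 0.00367 and 0.00516).

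Mki67, the proliferation antigen and 1 of the 26 mitotic genes, did not follow the CD41 difference of the 45. Its level was 27.2, 8.11 and 32.1 CPM in control CD41- cells, 9.62 and 12.1 in control CD41+ cells, 117, 88.8 and 122 in depleted CD41- cells and 18.9, 104 and 141 in depleted CD41+ cells. Control groups overlapped (-1.05 ± 0.73, edgeR adjusted p = 0.473), and the average depletion response passed (2.67 ± 0.49, edgeR adjusted p = 0.0131). Depleted CD41+ replicate 1, the smallest library, held the lowest level of Cenpe, Cenpf and Mki67 in its group.

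Transcripts of other cell types stood beside these values. Of the genes the lineage gate was to exclude, Cd3e was at 0 in 9 of the 11 libraries, while Ly6g and Itgam, which neutrophils carry, were at 11.5 to 119 and 2.93 to 41.8 CPM. The 15 neutrophil genes, none of them at 0 in any library, made up 0.924% to 1.60% of CPM in control CD41- cells, 2.58% to 9.02% in control CD41+ cells, 0.466% to 3.92% in depleted CD41- cells and 1.62% to 5.44% in depleted CD41+ cells. Their median fold change in the CD41 comparison of control mice was 1.89 and that on depletion in CD41- cells was 0.63. The 14 erythroid genes made up 0.296% to 0.486%, 0.530% to 0.654%, 0.296% to 0.463% and 0.410% to 0.547% in the same order, and 10 stromal and endothelial genes added up to 91.4 to 116, 225 to 389, 82.8 to 403 and 390 to 677 CPM. The 10 macrophage genes added up to 77.1 to 223, 317 to 374, 102 to 357 and 348 to 589.9 CPM in that order, so that control CD41+ libraries lay above control CD41- libraries. For 17 megakaryocyte genes, Itga2b among them, the sums were 1970 to 2894, 2429 to 3209, 1207 to 1757 and 1394 to 2007 CPM, lower in depleted than in control libraries of each fraction, with 6 of 17 higher for CD41 in control mice and 3 lower on depletion in CD41- cells, against 1.58% and 0.892% of all genes. The 9 B cell genes, at 143 to 394 CPM in all libraries, overlapped between the groups. Median fold changes for CD41 in control mice were 1.55 (erythroid), 2.09 (stromal and endothelial), 1.51 (macrophage), 1.30 (megakaryocyte) and 1.05 (B cell). On depletion in CD41- cells they were 0.23, 1.21, 0.64, -0.91 and -0.06. For CD41 in control mice 3 of 10 stromal and endothelial, 1 of 14 erythroid and 0 of 15 neutrophil genes were called higher, against 1.58% of all genes. In depleted CD41- replicate 2, which had the lowest neutrophil share of the 11 libraries (0.466%), the 45 genes added up to 4696 CPM, next to 4816 and 4822 CPM in the other depleted CD41- libraries. The part of these cell types in the CD41 and depletion differences was not tested. The 13 stem cell genes had a median of -0.49 for CD41 in control mice and -0.44 for depletion in CD41- cells, with 2 and 1 of 13 called lower where 1.04% and 0.892% of all genes were.

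Promoter windows from RefSeq (GRCm38.p6, 250 bases before to 50 after the start) were found for 39 of the 45 genes, in 44 windows, and were searched on both strands for letters linked to cell cycle genes. The cell cycle homology element TTTGAA was present in 43.2% of the 44 windows, against 12.5% of windows of genes tested and 17.9% of all windows in the table. CCAAT was present in 68.2%, against 37.6% and 37.4%, and either TTTGAA or TTTAAA in 50% (22 windows), against 19.9% and 27.6%. Any of the E2F letters TTTGGCGC, TTTCCCGC or TTTGCCGC was present in 9.09% (4 windows), against 3.32% and 1.99%. A homology element together with CCAAT was present in 36.4%, against 7.76% of windows of genes tested. None of these motifs holds another within its letters on either strand, each was counted on its own, and a match is a description of the sequence, not of binding.

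The 4 stretches of 100 bases just before the start show promoters with and without CCAAT there. Spc25, Ttk and Cenpf rose on depletion in CD41- cells with CCAAT in this stretch and Nuf2 rose without it. Among the member stretches clear of annotated exons, only those of Spc25, Ttk and Cenpf held CCAAT. Cenpi, Knl1, Pmf1, Zw10, Bub1b, Mad2l1 and Birc5, whose stretches were also clear of exons, rose in that comparison without it. Capitals mark CCAAT on the printed strand, 5′ to 3′, for Spc25 (chr2:69206214-69206313, minus), Ttk (chr9:83834589-83834688, plus), Cenpf (chr1:189688087-189688186, minus) and Nuf2 (chr1:169531465-169531564, minus).
Spc25: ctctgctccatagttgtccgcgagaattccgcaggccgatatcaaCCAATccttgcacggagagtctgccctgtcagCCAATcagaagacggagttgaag
Ttk: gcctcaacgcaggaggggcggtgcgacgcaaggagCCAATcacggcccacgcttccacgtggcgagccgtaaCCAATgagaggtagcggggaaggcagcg
Cenpf: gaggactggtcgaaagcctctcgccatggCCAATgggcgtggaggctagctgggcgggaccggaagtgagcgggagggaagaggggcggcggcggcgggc
Nuf2: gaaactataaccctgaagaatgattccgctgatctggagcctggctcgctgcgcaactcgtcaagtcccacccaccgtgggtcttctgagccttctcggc
Spc25 and Ttk each hold 2 such boxes, and Cenpf holds 1 in the stretch and another further upstream. TTTGAA lies just past the start, on either strand, in the windows of Spc25, Ttk and Cenpf, at 24, 7 and 2 bases from it.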

How the data were processed

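Per the labels' protocols, RNA of 1000 sorted cells was reverse transcribed from poly-dT with template switching, amplified, tagmented and sequenced. Per the submitters' processing notes, cutadapt, STAR and HTSeq 0.6.1p1 were used, with GRCm38 and mm10 named as builds. The deposited table holds the authors' raw counts per gene. Neither the strand setting nor the annotation release of that counting is given in the sources used here. Symbols, lengths of principal transcripts and exon overlaps came from GENCODE M21.

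Libraries were grouped by their labels. Genes were filtered with filterByExpr (minimum count 10, minimum total 15), scaled by TMM and fitted in 1 model with the robust quasi-likelihood test of edgeR 4.0.16 in R 4.3.3. Calls had a Benjamini-Hochberg adjusted p under 0.05 over 13448 genes. Standard errors were derived from the F statistic, as the size of the log2 fold change divided by its square root. Alternatives tried were DESeq2 1.42.0, limma 3.58.1 voom with sample weights, scaling by RLE or by library size, all genes unfiltered, the fit without robust, fits of 2 groups, a replicate block from neighbouring title numbers, and each library left out in turn. In an alternative, the share of all genes called is of the genes tested there, which differ in number. With DESeq2 these were 11345 for depletion in CD41- or CD41+ cells. They were 13431 for CD41 in control or depleted mice and for the difference of responses. Without a filter they were 25098. The procedure was tested on simulated data.

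The genes, lists and alternatives were chosen with earlier results of these data known. Values in each library are given for called genes, up to 4 per role with the smallest p, and the gene with the smallest p for CD41 in control mice; genes against the median's sign are named, as are 3 genes of each other list with the smallest p for CD41 in control mice. Library values of Hjurp, Mis18a, Cenph and Nuf2 were added after they were seen. No 2 libraries of a group agreed within sampling noise (chi-square per degree of freedom 11.3 to 28.9 over genes). Figures were drawn with matplotlib 3.10.9.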

Additional observations from a re-analysis of the deposited data

How the results depend on the processing

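The median fold change of the 45 genes kept its sign in each comparison under all alternatives run, while the counts of calls did not. For CD41 in control mice 15 became 24 without a filter, 26 with DESeq2, 9 with limma voom and 7 with only the groups compared, while the share of all genes called went from 2.62% to 4.55%, 7.4%, 1.31% and 1.13%. With 1 library left out it was 5 to 19, with 0.33% of all genes called at 5 and 2.93% at 19. For CD41 on average 14 became 9 with library size alone (5.17% of all genes called), and 8 to 16 with 1 library left out. Of all genes 3.26% or 3% were called at 8 and 5.91% at 16. For depletion the counts with 1 library left out were 20 to 34 in CD41- cells, 0 to 1 in CD41+ cells and 16 to 32 on average. The share of all genes called was 1.31% or 1.26% at 20 and 4.2% at 34 in CD41- cells. In CD41+ cells it was 0.113% or less at 0 and 0.427% at 1, and on average 2% at 16 and 5.45% at 32. In CD41+ cells depletion gave 3 calls without a filter and 4 with DESeq2, and the difference of responses gave 9 and 4, with 1.26%, 2.34%, 0.709% and 0.261% of all genes called. Of 72 named calls, 39 passed with every single library left out. The calls of Nuf2, Dsn1, Pmf1 and Incenp were not among the 72. The causes of the changed counts were not tested. Consecutive title numbers are not said to pair the libraries (correlations of deviations 0.0801 and 0.0977 in control, 0.207 to 0.343 in depleted mice), and with a replicate block of these numbers the counts were 13 and 0 for CD41 in control and depleted mice, 16 on average and 0 for the difference of responses. With this block 2.93%, 1.17%, 7.83% and 0.0149% of all genes were called in the same order. Library size alone moved the median of all genes for CD41 in control mice from -0.03 to -0.15, and the calls of all genes from 212 higher of 352 to 129 of 286, with 12 of the 45 higher. For CD41 in control mice, Cenpf reversed to 0.0178 with limma voom and ran from -0.55 to 0.50 with 1 library left out (0.50 and 0.06 when replicate 2 of control CD41- or of control CD41+ cells was dropped). Mad1l1 reversed to 0.00646 with the block and ran from -0.49 to 0.22 (0.04 and 0.22 when control CD41- replicate 3 or control CD41+ replicate 1 was dropped).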
